A study of Bos taurus and other sequences with 9 samples.

Results

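The levels of 9 miRNAs from the miR-17-92 and miR-106b-25 clusters were followed through culture media with untreated, EV-depleted or no fetal bovine serum (FBS). They were chosen by name, and all 9 were present among the 425 miRNAs of the deposited tables. From the miR-17-92 cluster these were hsa-miR-17-5p, hsa-miR-19a-3p, hsa-miR-19b-3p, hsa-miR-20a-5p and hsa-miR-92a-3p. From the miR-106b-25 cluster they were hsa-miR-25-3p, hsa-miR-93-5p and both arms of one precursor, hsa-miR-106b-5p and hsa-miR-106b-3p. The names carry the human prefix under which the authors listed them, although the serum was bovine.

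Small RNA was sequenced from extracellular vesicle (EV) preparations of 9 media samples. The paper did not show that this RNA was bound to EVs, and it considers a mixture of vesicular and non-vesicular RNA more likely. FBS was untreated serum from Sigma (FBS-1) or Gibco (FBS-2), 1 lot each. UC-dFBS and UF-dFBS were the same sera after ultracentrifugation or after passage through an ultrafiltration membrane, of which the flow-through was kept, with sample 1 from Sigma and sample 2 from Gibco serum. SBI-dFBS was commercial exosome-depleted FBS from System Biosciences in 2 lots, and StemPRO was a defined serum-free medium with 1 sample and no replicate. All serum-based media were the same basal medium with serum and antibiotics added. Each medium thus had at most 2 samples, and their SD includes how sera or lots differ.

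Both clusters are transcribed as single primary RNAs that are cut into several precursors. In the bovine annotation (ARS-UCD2.0), MIR17, MIR18A, MIR19A, MIR20A, MIR19B and MIR92A-1 are direct neighbours, and MIR106B, MIR93 and MIR25 lie together within MCM7, a gene for a DNA replication helicase subunit. A miRNA finds its target mRNAs mainly through its seed, a short run of bases near its 5′ end. By their seeds the miRNAs form the miR-17 family (hsa-miR-17-5p, hsa-miR-20a-5p, hsa-miR-93-5p and hsa-miR-106b-5p), the miR-19 family (hsa-miR-19a-3p and hsa-miR-19b-3p) and the miR-92 family (hsa-miR-92a-3p and hsa-miR-25-3p), while hsa-miR-106b-3p has a seed of its own. The clusters are known for promoting cell proliferation and survival, with cell cycle inhibitors among their targets. Several of these miRNAs are abundant in blood cells and are often measured in serum. A further copy of hsa-miR-19b-3p and hsa-miR-92a-3p is encoded in the related miR-106a-363 cluster, so that the counts of these miRNAs may come from either locus.

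Levels are given as spike-in normalized counts, in which the authors divided each count by a factor from external spike-in RNAs. Total counts per sample ranged from 6679 to 6867736, and miRNA counts from 937 in UF-dFBS-2 to 203755 in FBS-1. A count of 0 allows a level of up to 3 counts, and this floor was worth between 0.0278 (StemPRO) and 0.794 (SBI-dFBS-2) spike-in normalized counts. Floors and intervals cover counting error only. Liver hsa-miR-122-5p and red blood cell hsa-miR-451a, both typical of serum, had counts in all 9 samples. hsa-miR-122-5p alone held 46.1% (FBS-1) and 28.9% (FBS-2) of all miRNA counts. Its share was 68.0% and 73.4% for the SBI-dFBS lots, 59.6% and 54.5% after ultracentrifugation, and 60.4% and 41.5% after ultrafiltration. For StemPRO it was 0.487%. Total miRNA and shares of all miRNA counts thus depend largely on hsa-miR-122-5p among the serum-based samples. In serum preparations, fewer carriers of a miRNA and less of it per carrier cannot be told apart.

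In untreated FBS the 9 miRNAs summed to 502 (FBS-1) and 331 (FBS-2) spike-in normalized counts. Of all miRNA counts they held 1.19% (1.15 to 1.24%, Wilson 95% interval, as for all shares here) and 1.98% (1.91 to 2.06%), respectively. hsa-miR-25-3p, with 174 and 155 spike-in normalized counts, and hsa-miR-93-5p, with 209 and 113, made up most of the sum, and their means ranked 22 and 24 of all miRNAs in FBS. Together they held 76.4% of the counts of the 9 miRNAs in FBS-1 and 80.8% in FBS-2. The miR-106b-25 cluster was 4.32 times the miR-17-92 cluster in FBS-1 and 5.89 times in FBS-2. The other miRNAs were lower by a wide margin, from a mean of 24.5 for hsa-miR-92a-3p to 1.71 for hsa-miR-106b-5p, which ranked 167.

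**Figure D1:**
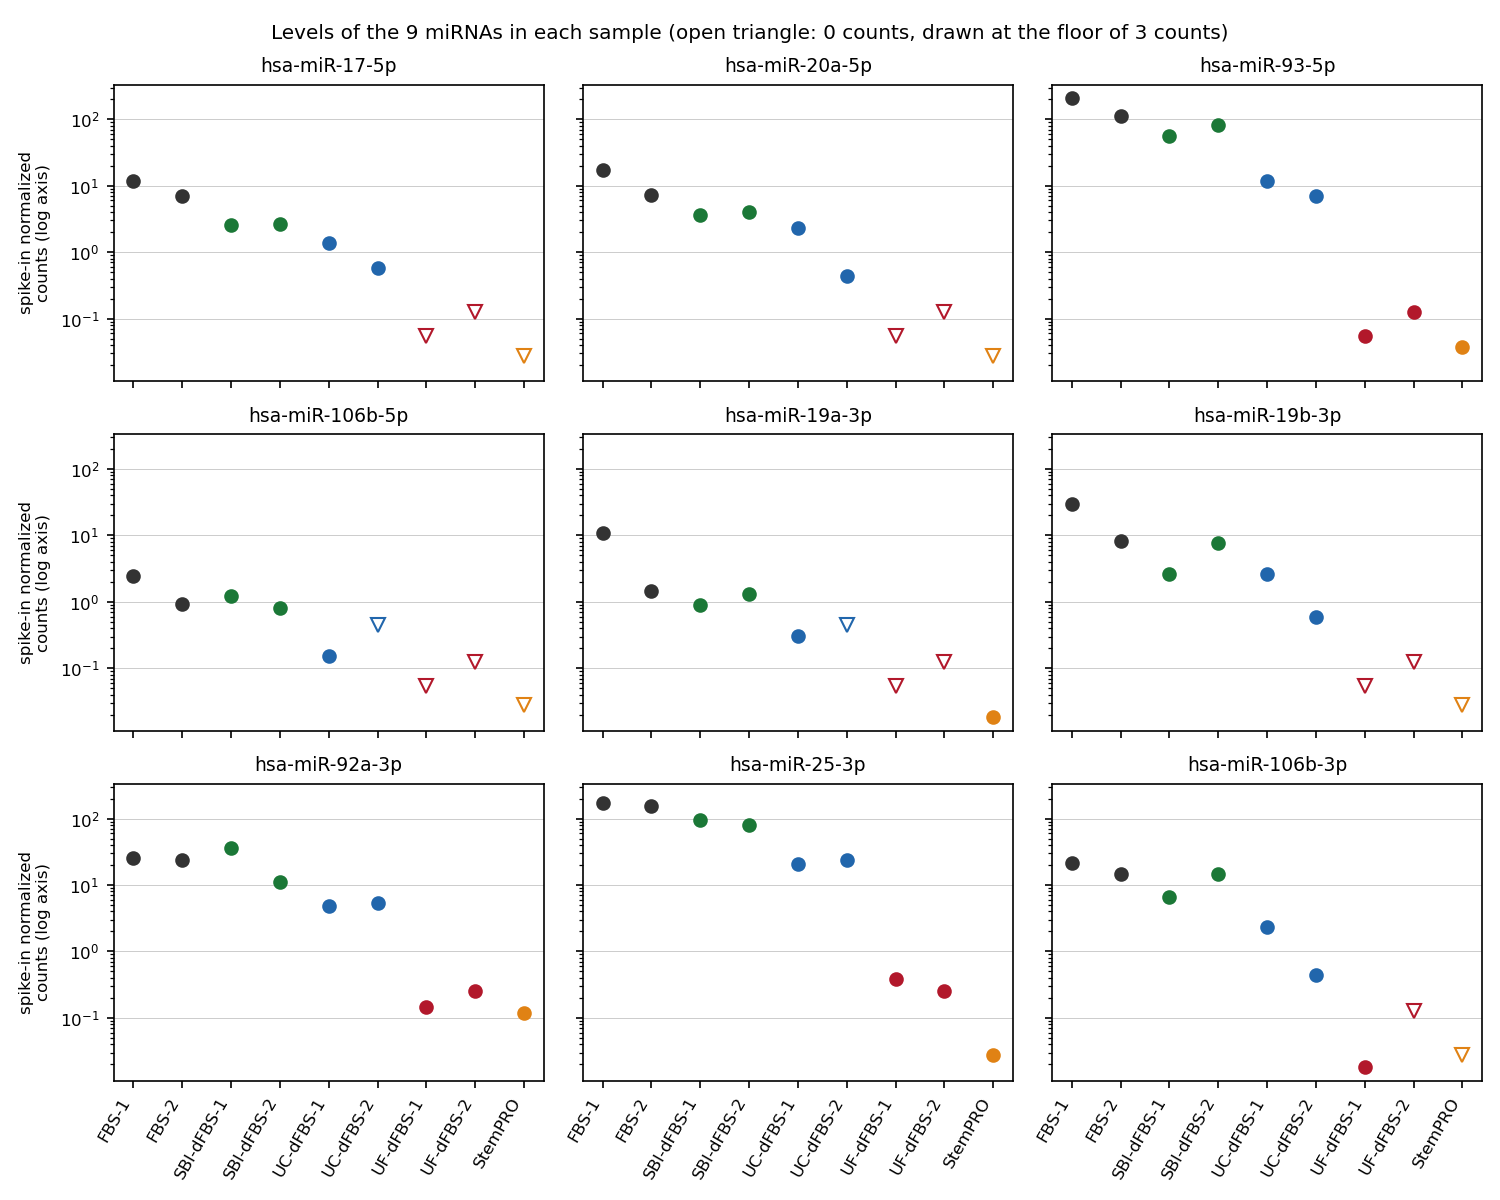
Spike-in normalized counts (log axis) of each miRNA in each of the 9 samples, with 1 point per sample and open triangles for samples with 0 counts, drawn at the floor of 3 counts. hsa-miR-25-3p falls from 174 and 155 in FBS to 20.5 and 23.9 in UC-dFBS and to 0.380 and 0.250 for UF-dFBS, while hsa-miR-92a-3p in SBI-dFBS-1 (36.6) lies above both FBS samples.

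The miR-17 family was represented very unequally. hsa-miR-93-5p had 209 and 113 spike-in normalized counts in FBS, 56.6 and 83.1 in the lots of SBI-dFBS, 11.9 and 6.89 for UC-dFBS, 0.0543 and 0.125 for UF-dFBS and 0.0370 in StemPRO. Its media did not overlap among the serum-based samples, with FBS highest and UF-dFBS lowest. hsa-miR-20a-5p had 17.1 and 7.24 in FBS, 3.65 and 3.97 for SBI-dFBS, 2.29 and 0.440 for UC-dFBS, and 0 counts in UF-dFBS and StemPRO.

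hsa-miR-17-5p, which gives the larger cluster its name, had 11.8 and 7.11 spike-in normalized counts in FBS, 2.54 and 2.65 for SBI-dFBS, 1.38 and 0.586 for UC-dFBS, and 0 counts in UF-dFBS and StemPRO. The order of the media was that of hsa-miR-20a-5p, its close relative from the same transcript. The share of hsa-miR-20a-5p in the counts of this pair was 59.3% in FBS-1 (51.0 to 67.1%) and 50.5% in FBS-2 (41.1 to 59.8%), intervals that overlap. hsa-miR-106b-5p was near the limit of counting, with 12 and 7 counts in FBS, 11 and 3 for SBI-dFBS, 1 and 0 for UC-dFBS, and 0 in UF-dFBS and StemPRO.

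The other arm of that precursor was far more frequent. hsa-miR-106b-3p had 105 and 108 counts in FBS, 60 and 55 for SBI-dFBS, 15 and 3 for UC-dFBS, 1 and 0 for UF-dFBS and 0 in StemPRO. Its share of the counts of both arms was 89.7% (82.9 to 94.0%) in FBS-1 and 93.9% (88.0 to 97.0%) in FBS-2. The lots of SBI-dFBS gave 84.5% (74.3 to 91.1%) and 94.8% (85.9 to 98.2%), with overlapping intervals. Read counts of different miRNAs also depend on how well each sequence ligates to the adapters, which was not tested.

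hsa-miR-19b-3p, of the family known for the part of the miR-17-92 cluster in lymphoma, had 29.3 and 8.32 spike-in normalized counts in FBS, 2.65 and 7.68 for SBI-dFBS, 2.60 and 0.586 for UC-dFBS, and 0 counts in UF-dFBS and StemPRO. hsa-miR-19a-3p had 10.9 and 1.48 in FBS, 0.885 and 1.32 for SBI-dFBS, 0.306 and 0 for UC-dFBS, 0 for UF-dFBS and 0.0185 in StemPRO, which is 2 counts. The sequences of this pair are nearly identical, so that single reads may be assigned to the wrong one. In both miRNAs FBS-1 stood well above FBS-2, and all SBI-dFBS and UC-dFBS samples lay below FBS-2.

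hsa-miR-25-3p, of the miR-92 family, had 93.5 and 80.5 spike-in normalized counts for SBI-dFBS, 20.5 and 23.9 for UC-dFBS, 0.380 and 0.250 for UF-dFBS and 0.0278 in StemPRO, which is 3 counts. Within each serum-based medium its samples lay close to each other. hsa-miR-92a-3p had 25.2 and 23.9 in FBS, 36.6 and 11.1 for SBI-dFBS, 4.90 and 5.28 for UC-dFBS, 0.145 and 0.250 for UF-dFBS and 0.120 in StemPRO. The lots of SBI-dFBS thus fell on either side of the FBS samples, whose values were almost the same.

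In SBI-dFBS these miRNAs were lower by about as much as total miRNA. The sum of the 9 was 204 and 206 spike-in normalized counts, 50.8% ± 14.3 lower than in FBS (SD propagated from both media, n = 2 each). Total miRNA was 56.1% lower. All 9 fitted changes were negative, as were those of every miRNA up to rank 157 of 163 from the lowest. Of the 9, 2 passed the test, hsa-miR-19a-3p and hsa-miR-19b-3p. Of all 163 miRNAs tested, 44.2% were called lower. The log2 fold change was -2.51 (SE 0.99, adjusted p = 0.0289, edgeR) for hsa-miR-19a-3p and -1.90 (SE 0.76, adjusted p = 0.032) for hsa-miR-19b-3p.

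For the remaining 7 miRNAs the log2 fold change in SBI-dFBS lay between -1.86 for hsa-miR-17-5p (adjusted p = 0.0608, edgeR) and -0.027 for hsa-miR-92a-3p (adjusted p = 0.97). The median over the 9 was -1.20, against -1.70 over all miRNAs tested. Both lots lay below both FBS samples for 6 of the 9, against 74.8% of all miRNAs tested. The exceptions were hsa-miR-92a-3p, hsa-miR-106b-3p and hsa-miR-106b-5p. The calls were not stable to single libraries, where a fit without an FBS or SBI-dFBS sample leaves only 1 in that medium. For hsa-miR-19b-3p the log2 fold change was -0.73 without FBS-1 and -1.29 without SBI-dFBS-1. It was -2.55 without FBS-2 and -2.82 without SBI-dFBS-2. hsa-miR-19a-3p had -2.20 without SBI-dFBS-1 and -2.78 without SBI-dFBS-2, and failed the filter without either FBS sample. Calls over all miRNAs in these fits were not compared, so the instability may not be particular to the 9. With DESeq2 on the same spike-in scale none of the 9 was called, against 35.6% of all miRNAs tested. At an unadjusted p under 0.05, 1 of the 9 was lower in DESeq2 (46.0% of all) and 4 in edgeR (54.6% of all). Relative to the other miRNAs (TMM), 7 of the changes were positive, and none of the 9 was called lower, also at an unadjusted p.

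All 9 miRNAs were lower after ultracentrifugation. The sum was 46.4 spike-in normalized counts in UC-dFBS-1 and 38.1 in UC-dFBS-2, 89.9% ± 3.26 less than in FBS (n = 2 each), with total miRNA 80.2% lower. Within its own serum the sum was 10.8-fold lower for Sigma and 8.68-fold lower for Gibco, so that the sera differed less than either differed from its FBS. All 9 passed the test (edgeR, adjusted p between 3.78e-07 and 0.00685), as did 90.8% of all miRNAs tested, and the calls thus do not set these miRNAs apart. Both samples lay below both FBS samples for all 9, and for 98.2% of all miRNAs tested. Without UC-dFBS-2, 6 of the 9 were called, and hsa-miR-17-5p, hsa-miR-20a-5p and hsa-miR-106b-5p were not. For each of the depleted media against FBS, the log2 sums gave p = 0.333 by exact permutation (two-sided), and 2 samples against 2 allow no smaller p.

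The size of the fall in UC-dFBS varied between the miRNAs. The median log2 fold change was -3.55, against -2.70 over all miRNAs tested, and 8 of the 9 lay below the latter. hsa-miR-93-5p had one of the lowest values, with -4.09 (SE 0.70), rank 9 of 163 from the most reduced, and was 17.5-fold lower in Sigma and 16.4-fold lower in Gibco serum. hsa-miR-25-3p changed by -2.89 (SE 0.67, rank 61) and was 8.51-fold and 6.47-fold lower in these sera. hsa-miR-92a-3p changed least, by -2.27 (SE 0.66, rank 122), with 5.14-fold and 4.53-fold. hsa-miR-19a-3p had -5.27 (SE 1.23, rank 2), but this rests on 2 counts for UC-dFBS, where the FBS mean was 41.5 times the pooled level, with a counting interval from 11.5 to 342. Relative to the other miRNAs (TMM), none of the 9 was called lower for UC-dFBS, against 0.0% of all miRNAs tested. At an unadjusted p under 0.05, 2 of the 9 were lower, against 3.68% of all. DESeq2 with its own size factors called none of the 9, against 0.613% of all. Under TMM hsa-miR-92a-3p was 0.33 higher on the log2 scale (adjusted p = 0.992).

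**Figure D2:**
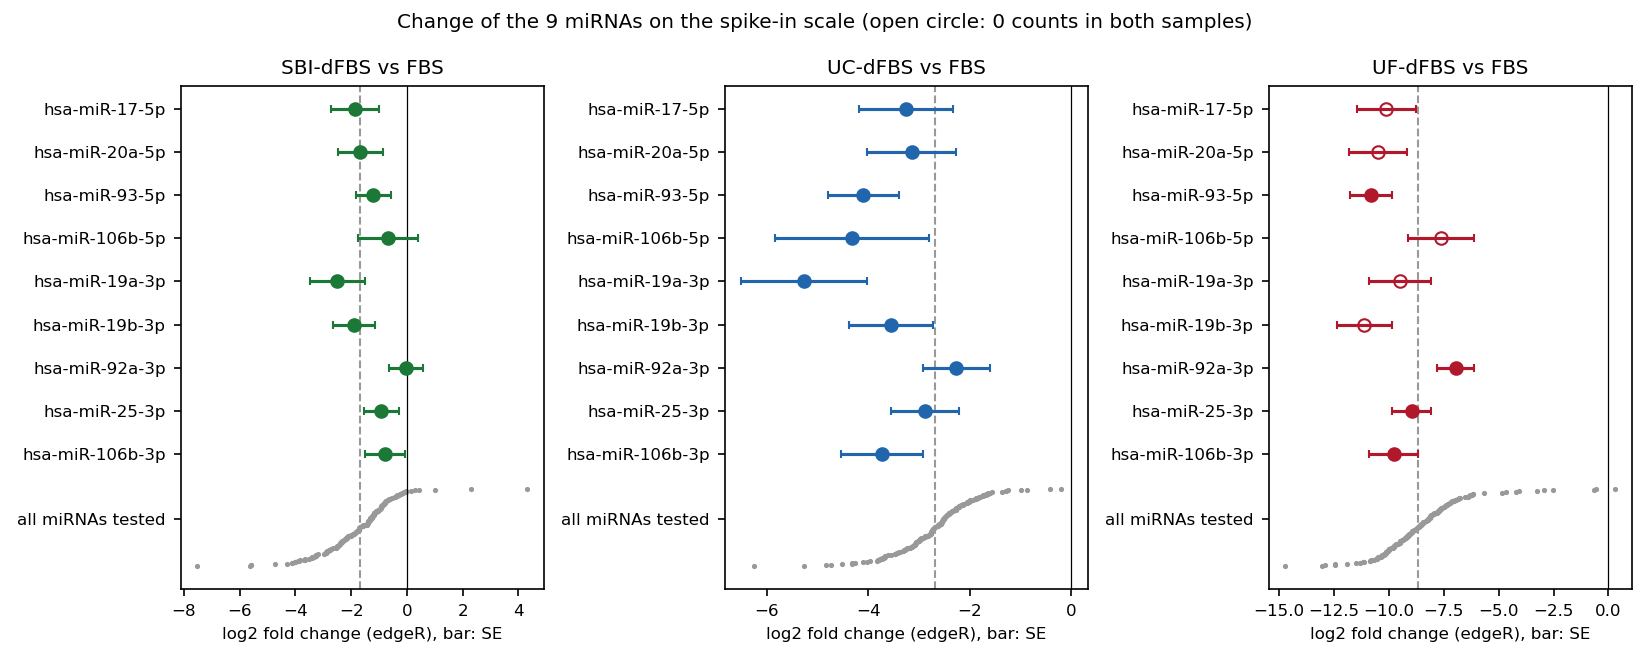
Log2 fold changes against FBS on the spike-in scale (points, with the SE of the edgeR fit as bars) for SBI-dFBS, UC-dFBS and UF-dFBS, with all 163 miRNAs tested in grey at the bottom and their median as a dashed line. In UC-dFBS 8 of the 9 points lie left of the median of -2.70, and hsa-miR-92a-3p lies right of the median in all 3 panels. Open circles stand for miRNAs with 0 counts in both UF-dFBS samples, whose fitted values depend on the prior count.

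hsa-miR-93-5p and hsa-miR-25-3p come from the same primary transcript and had similar means in FBS, so their ratio could be followed with many counts. hsa-miR-93-5p held 54.5% (52.2 to 56.7%) of the counts of this pair in FBS-1 and 42.2% (40.1 to 44.4%) in FBS-2. After ultracentrifugation it held 36.8% (30.6 to 43.5%) in UC-dFBS-1 and 22.4% (17.3 to 28.5%) in UC-dFBS-2. The share was lower in both sera, beyond counting error, with a log2 ratio that fell by 1.04 in Sigma and by 1.34 in Gibco serum. In SBI-dFBS it was 37.7% (35.2 to 40.3%) and 50.8% (46.9 to 54.7%), so that its lots differed as the FBS samples did. With few counts after ultrafiltration, UF-dFBS-1 gave 12.5% (4.34 to 31.0%) and UF-dFBS-2 33.3% (12.1 to 64.6%). The interval of UF-dFBS-1, from 3 counts against 21, lay below that of FBS-1. The interval of UF-dFBS-2 included the share of FBS-2.

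hsa-miR-92a-3p and hsa-miR-25-3p share a seed but not a cluster. hsa-miR-92a-3p held 12.6% (10.7 to 14.9%) and 13.4% (11.7 to 15.3%) of the counts of this pair in FBS. It held 19.3% (14.0 to 25.9%) and 18.1% (13.4 to 24.0%) for UC-dFBS, higher in both sera but with intervals that overlap those of FBS. SBI-dFBS-1 stood apart with 28.1% (25.6 to 30.8%), while SBI-dFBS-2 had 12.1% (9.11 to 16.0%). Exact permutation tests of both log2 ratios in SBI-dFBS and UC-dFBS, 4 in all with n = 2 per medium, gave p between 0.333 and 1 (adjusted 0.667 to 1), and 2 samples against 2 allow none below 0.333.

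**Figure D3:**
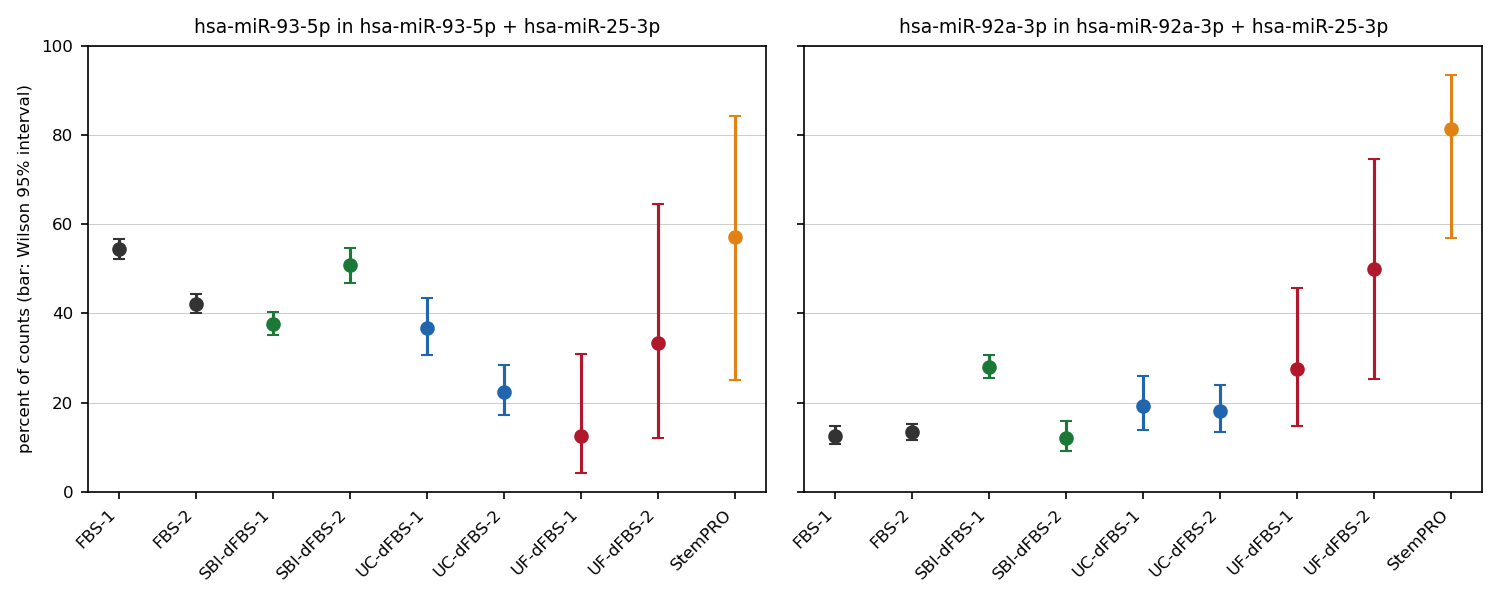
Percent of counts held by hsa-miR-93-5p within hsa-miR-93-5p plus hsa-miR-25-3p (left) and by hsa-miR-92a-3p within hsa-miR-92a-3p plus hsa-miR-25-3p (right), 1 point per sample with Wilson 95% intervals. The left share drops from 54.5% to 36.8% in Sigma and from 42.2% to 22.4% in Gibco serum after ultracentrifugation. The right share is highest in StemPRO (81.2%), from 13 counts against 3.

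After ultrafiltration hardly any counts of these miRNAs were left. The sum was 0.597 and 0.624 spike-in normalized counts, from 33 and 15 counts, which is 99.85% ± 0.0428 less than in FBS, with total miRNA 99.80% lower. None of the 9 exceeded 1 spike-in normalized count in either UF-dFBS sample, whereas 9 did in FBS-1, 8 in FBS-2, 8 in each SBI-dFBS lot, 7 in UC-dFBS-1 and 3 in UC-dFBS-2. Of all 425 miRNAs, 8 and 6 exceeded it in UF-dFBS, against 211 and 171 in FBS, 134 and 138 in the SBI-dFBS lots and 119 and 100 in UC-dFBS. All 9 were called lower than in FBS (edgeR, adjusted p between 3.86e-25 and 6.24e-07), as were 98.2% of all miRNAs tested. For all 9 both samples also lay below both FBS samples, against 98.8% of all tested. hsa-miR-25-3p was 459-fold lower in Sigma and 619-fold lower in Gibco serum, from 21 and 6 counts in UF-dFBS. hsa-miR-92a-3p was 174-fold and 95.6-fold lower, from 8 and 6 counts. With so few counts, whether the sera differ in these folds cannot be told.

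hsa-miR-93-5p had 3 counts in each UF-dFBS sample, and its mean in FBS was 2126 times the pooled level of UF-dFBS, with a counting interval from 977 to 5792. Within its serum it was 3846-fold lower for Sigma and 904-fold lower for Gibco, with too few counts to tell whether the sera differ. It was also the only one of the 9 that was called lower relative to the other miRNAs, with a log2 fold change of -2.12 (adjusted p = 0.0357, edgeR with TMM) and -2.24 (adjusted p = 0.0196, DESeq2 with its own size factors). Of all miRNAs tested, 6.13% and 5.52% were called lower in this way. hsa-miR-92a-3p was 1.69 and 1.64 higher on these scales, without passing the test (adjusted p = 0.179 and 0.151). For the 5 miRNAs at 0 counts in both UF-dFBS samples, only bounds can be given. With the floor of 3 counts in each library, FBS had at least 210-fold more hsa-miR-19b-3p, 136-fold more hsa-miR-20a-5p, 105-fold more hsa-miR-17-5p, 69.3-fold more hsa-miR-19a-3p and 19.1-fold more hsa-miR-106b-5p. These bounds lean on FBS-1, and without it they were 92.8-fold, 80.8-fold, 79.3-fold, 16.5-fold and 10.5-fold in the same order.

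The StemPRO sample held 22 counts of the 9 miRNAs, or 0.204 spike-in normalized counts, 99.95% ± 0.0142 less than FBS, with an SD that only reflects FBS. hsa-miR-92a-3p had 13 of these counts, hsa-miR-93-5p 4, hsa-miR-25-3p 3 and hsa-miR-19a-3p 2. The other 5 had 0 counts. As a share of all miRNA counts the 9 amounted to 1.53% (1.01 to 2.31%), an interval that includes the 1.19% of FBS-1 and the 1.98% of FBS-2. hsa-miR-92a-3p, the scarcer member of its family in FBS, made up 59.1% of the 22 counts (38.7 to 76.7%). In FBS-1 it was 5.02% (4.22 to 5.96%) and in FBS-2 7.22% (6.26 to 8.30%). The paper proposes that many StemPRO reads mapped to miRNAs may be experimental noise.

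**Figure D4:**
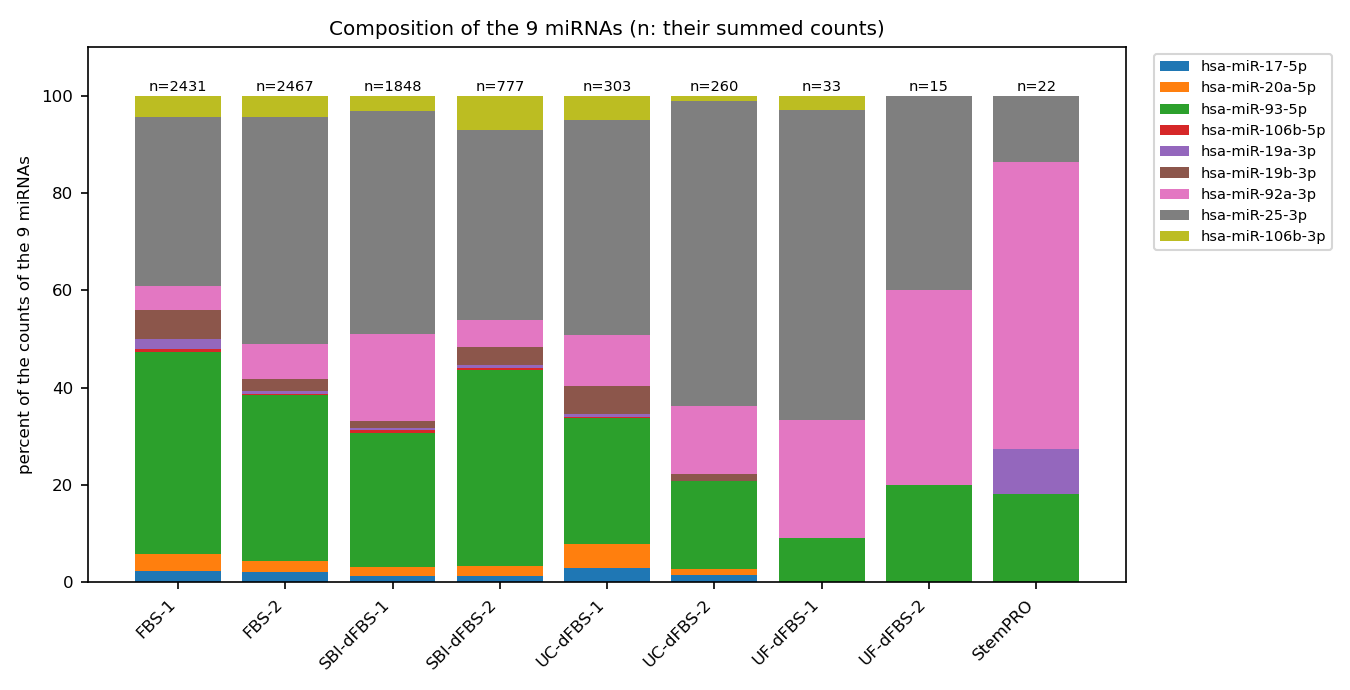
Share of each miRNA in the summed counts of the 9 (stacked bars adding up to 100%), with the summed counts above each bar. hsa-miR-25-3p and hsa-miR-93-5p hold 76.4% and 80.8% in FBS-1 and FBS-2, and hsa-miR-92a-3p takes 59.1% of only 22 counts in StemPRO.

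The sera, 1 lot per supplier, were compared over FBS, UC-dFBS and UF-dFBS, 3 samples per serum with the medium as a term. The samples of a serum came from the same lot, so that supplier and lot cannot be told apart. The p-values do not cover the spread between lots of a supplier. Of the 9 miRNAs, 6 had enough counts, and 3 of these were higher in Sigma than in Gibco serum, against 35.2% of the 105 miRNAs tested. None of the 6 was called lower, against 1.9%. The log2 fold change was 1.87 (SE 0.49, adjusted p = 0.0015, edgeR) for hsa-miR-19b-3p, 1.48 (SE 0.57, adjusted p = 0.0344) for hsa-miR-20a-5p and 0.77 (SE 0.31, adjusted p = 0.0376) for hsa-miR-93-5p. hsa-miR-106b-3p had 0.95 (adjusted p = 0.104). Both miRNAs of the miR-92 family were near 0, with 0.060 (SE 0.28, adjusted p = 0.889) for hsa-miR-25-3p and -0.089 (SE 0.35, adjusted p = 0.875) for hsa-miR-92a-3p, where the median of all miRNAs was 0.62. None of the miRNAs was called without FBS-1, FBS-2, UC-dFBS-1 or UC-dFBS-2. Without the first 3 of these, only 3 of the 6 miRNAs had enough counts to be tested. With the medium as a term, leaving out a library also takes away what its partner adds on the sera, for any miRNA. Without UC-dFBS-2, hsa-miR-19b-3p, hsa-miR-20a-5p and hsa-miR-93-5p still had log2 fold changes of 1.78, 1.21 and 0.53. Without FBS-1 and without FBS-2, hsa-miR-93-5p had 0.39 and 0.37, against 0.77 with all samples. Calls over all miRNAs in these fits were not compared. Whether the loss of calls is particular to these miRNAs was thus not tested. DESeq2 on the spike-in scale called hsa-miR-19b-3p only (13.3% of all), with adjusted p = 0.109 for hsa-miR-20a-5p and 0.392 for hsa-miR-93-5p. Without a filter on low counts, these 2 also missed the threshold (edgeR, adjusted p = 0.063 and 0.258), while hsa-miR-19b-3p and hsa-miR-19a-3p were called (6.12% of all). Relative to the other miRNAs (TMM) none was called either, and hsa-miR-93-5p had a log2 fold change of -0.017.

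The summed miRNAs of the blood cell lists and hsa-miR-122-5p of liver were also lower in the depleted media. The red blood cell list held hsa-miR-451a, hsa-miR-486-5p, hsa-miR-144-3p and hsa-miR-16-5p. All 4 were measured, and only hsa-miR-144-3p was at 0 in some samples. Their sum was between 732 and 1081 spike-in normalized counts in FBS, 359 to 429 for SBI-dFBS, 55.6 to 75.3 in UC-dFBS and 1.67 to 2.12 for UF-dFBS, and 2.31 in StemPRO. Most of this sum was hsa-miR-16-5p in every sample, with 870 and 459 in FBS and 2.02 in StemPRO. hsa-miR-451a had 71.8 and 32.6 in FBS, 32.7 and 45.5 in SBI-dFBS and 0.00926 in StemPRO, so that both SBI-dFBS lots lay above FBS-2. The red cell sum was 2.30-fold lower in SBI-dFBS and 13.9-fold lower for UC-dFBS. The 9 miRNAs were 2.03-fold and 9.86-fold lower, all miRNAs 2.28-fold and 5.06-fold, and hsa-miR-122-5p of liver 1.31-fold and 3.60-fold. The 4 platelet and white cell miRNAs (hsa-miR-223-3p, both arms of miR-142 and hsa-miR-150-5p) were 6.08-fold and 10.8-fold lower, with hsa-miR-150-5p at 0 in some samples. In UF-dFBS the red cell sum was 479-fold, hsa-miR-122-5p 389-fold and the platelet and white cell sum 2577-fold lower, against 682-fold for the 9 miRNAs. The sum of the 9 miRNAs was 0.464 and 0.452 times the red cell sum in FBS, 0.477 and 0.573 times in SBI-dFBS and 0.616 and 0.686 times in UC-dFBS, 0.359 and 0.294 times after ultrafiltration and 0.0880 times in StemPRO. It was 0.137 and 0.284 times the platelet and white cell sum in FBS, 1.23 and 0.327 times in SBI-dFBS, 0.149 and 0.278 times in UC-dFBS, 0.550 and 0.789 times after ultrafiltration and 0.278 times in StemPRO. Neither ratio was thus steady over all media. The part of any blood cell in these levels was not tested.

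Among the other miRNAs, hsa-miR-16-5p followed the sum of the 9 most closely. Over 6 samples (those of UC-dFBS, SBI-dFBS and FBS), its centred log2 levels differed from those of the sum by 0.257 (root mean square), ahead of hsa-miR-382-5p (0.397) and hsa-miR-432-5p (0.429), among 63 miRNAs with at least 20 counts in each sample. Of the rest of the red cell list, hsa-miR-486-5p ranked 17 (0.650), and the others did not have enough counts in each sample. hsa-miR-16-5p had 870 and 459 spike-in normalized counts in FBS, 260 and 248 for SBI-dFBS, and 60.4 and 36.2 in UC-dFBS. These samples share their sera, and likeness over 6 samples is a description.

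The remaining products of both clusters were scarce. Of 9 further arms looked for, 5 were in the table, and 1 had at least 10 counts in 2 samples, hsa-miR-18a-5p, which lies between hsa-miR-17-5p and hsa-miR-19a-3p in the cluster. It had 11 counts in each FBS sample, 7 and 4 for SBI-dFBS, 0 and 4 for UC-dFBS, and 0 in UF-dFBS and StemPRO. It was called lower in UC-dFBS (log2 fold change -2.61, adjusted p = 0.0364, edgeR) and UF-dFBS (adjusted p = 3.05e-07), but not in SBI-dFBS (-1.05, adjusted p = 0.394). The other 4 arms had at most 4 counts in any sample. Of 10 miRNAs particular to the related miR-106a-363 cluster, 4 were in the table, with at most 2 counts in any sample.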

How the data were processed

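Small RNA was sequenced in 9 samples of 5 media. The authors trimmed reads with cutadapt 1.11, collapsed reads with the same insert and complete unique molecular index (reads with an incomplete index were kept), and mapped them with Bowtie2 2.2.2 to mature miRBase sequences and then to a human (GRCh37) or bovine genome. The deposited counts are such reads per miRNA. Near-identical miRNAs (hsa-miR-19a-3p and hsa-miR-19b-3p, hsa-miR-17-5p and hsa-miR-20a-5p) differ by few bases, and the genome step allowed a mismatch. The deposited spike-in normalized signal is the count divided by a factor per sample, between 3.78 and 108 counts.

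Media were compared by the quasi-likelihood F-test of edgeR 4.0.16 (R 4.3.3), with spike-in factors as library sizes and p-values adjusted after Benjamini-Hochberg over all miRNAs tested (threshold 0.05). The medium fit held the 8 serum-based samples and miRNAs with at least 10 counts in 2 samples, the serum fit 6 samples and at least 10 counts in 3. SE was derived from the F statistic. The fits were tested on simulated data. Alternatives were DESeq2 1.42.0, TMM, other filters, single samples left out and the serum as replicate block. Shares have Wilson 95% intervals. Other values were computed in python 3.11.15 with scipy 1.17.1. Named were the 9 miRNAs, further arms with at least 10 counts in 2 samples, and the 3 most alike miRNAs. Members and lists were chosen with earlier results of these data known. Samples 1 and 2 of FBS, UC-dFBS and UF-dFBS are paired by serum, as stated by supplier. Across 163 miRNAs, the log2 difference between samples 1 and 2 was taken after adding 0.1 to each level. In FBS it correlated with that in UC-dFBS (r = 0.502) and UF-dFBS (r = 0.176), and UC-dFBS with UF-dFBS at r = 0.0234. Only 8 and 6 of all 425 miRNAs exceeded 1 spike-in normalized count in UF-dFBS, so that its r values say little about the pairing. That samples of a medium came from separate preparations is not stated beyond the sera and lots, so p-values measure the spread between these samples.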

Additional observations from a re-analysis of the deposited data

How the results depend on the processing

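The spike-in scale decides most calls. Counted relative to the other miRNAs (TMM, and DESeq2 with its own size factors), the median log2 fold change of all miRNAs moved to 0.21 and 0.052 (SBI-dFBS), -0.076 and -0.22 (UC-dFBS), -0.59 and -0.32 (UF-dFBS) and -0.030 and 0.055 between the sera. The number of the 9 miRNAs called was 0 and 0, 0 and 0, 1 and 1, and 0 and 0 in the same order. Of all miRNAs tested, 4.29% and 4.91%, 0.0% and 0.613%, and 6.13% and 5.52% were called lower in these media. Between the sera, 6.67% and 1.9% were called higher in Sigma. In SBI-dFBS the log2 fold changes then turned positive for hsa-miR-92a-3p (1.80 and 1.62), hsa-miR-106b-5p (1.26 and 1.05), hsa-miR-106b-3p (0.97 and 0.895), hsa-miR-25-3p (0.85 and 0.73), hsa-miR-93-5p (0.63 and 0.52) and hsa-miR-20a-5p (0.25 and 0.088), and under TMM for hsa-miR-19b-3p (0.023). hsa-miR-92a-3p also turned positive in UC-dFBS (0.33 and 0.18) and UF-dFBS (1.69 and 1.64), and hsa-miR-106b-5p in UF-dFBS under DESeq2 (0.42). Between the sera, hsa-miR-25-3p turned to -0.57 and -0.44 and hsa-miR-93-5p under TMM to -0.017. As a share of all miRNA counts, the sum of the 9 was 1.07 times that of FBS in SBI-dFBS, 0.499 times for UC-dFBS, 0.751 times for UF-dFBS and 0.963 times in StemPRO, and on raw counts 0.0098 times in UF-dFBS and 0.00898 times in StemPRO.

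On the spike-in scale, DESeq2 called 0 of the 9 in SBI-dFBS (35.6% of all) and 1 higher in Sigma serum (13.3% of all). Without a filter 1 was called in SBI-dFBS (15.0% of all). Without the medium as a term 0 were called between the sera. The share of all miRNAs called was not compared for this fit or for the fits without single samples. hsa-miR-92a-3p, near 0 in 2 comparisons, changed sign without FBS-1 or SBI-dFBS-2 in SBI-dFBS (range -1.14 to 0.58 over single samples left out), and between the sera without either UF-dFBS sample (range -0.335 to 0.0081), without both (0.0079) or without the medium term (0.038). Leaving out single samples gave 0 to 3 calls for SBI-dFBS, 6 to 9 for UC-dFBS, 7 to 9 for UF-dFBS and 0 to 3 between the sera, partly because fewer of the 9 passed the filter, and sums of 0.409 to 0.620, 0.0841 to 0.128, 0.00122 to 0.00185 and 0.000406 to 0.000615 times FBS in SBI-dFBS, UC-dFBS, UF-dFBS and StemPRO. With the serum as replicate block, 8 of 8 miRNAs tested were called for UC-dFBS, as for UF-dFBS, and the sums were 0.103 and 0.0015 times FBS, so that the pairing changed no call among those it tested (hsa-miR-106b-5p failed the filter). No miRNA of the 9 had 10 counts in every sample. Counting error was largest in UF-dFBS and StemPRO, where the 9 miRNAs had 33, 15 and 22 counts, although their floors (0.0278 to 0.125 spike-in normalized counts) were the lowest. The cause of these differences was not tested.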
